A study of Mus musculus with 46 samples.

Results

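Primitive endoderm is the epithelium that covers the inner cell mass of the mouse blastocyst, and its descendants line the yolk sac. In the blastocyst, Gata6 and Nanog mark alternative fates: cells that keep Nanog become epiblast, and cells that keep Gata6 go on to express Gata4, Sox17 and Sox7 and become endoderm. The visceral endoderm that follows takes up maternal proteins through a receptor made of cubilin (Cubn) and amnionless (Amn) with the adaptor Dab2, and secretes serum proteins such as alpha-fetoprotein (Afp) and transthyretin (Ttr). Since the reprogramming factor compared here is Nanog itself, the genes of the fate opposed to it were followed through the series.

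A list of 10 symbols defines the set: the transcription factors Gata4, Gata6, Sox17, Sox7 and Foxa2, the uptake proteins Cubn, Amn and Dab2, and the secreted proteins Afp and Ttr. They were taken by symbol and not by a threshold on a measured value, though with earlier results of these data known, and all 10 of 10 were found among 37108 genes of the time-course table and among 35976 genes of the iPSC table, where they comprised 29 of 106520 transcripts.

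The cells were mouse embryonic fibroblasts (MEF) from OG2 mice, which carry a green fluorescent reporter of Oct4, crossed with 129 mice. Retroviral pMXs vectors delivered Oct4 with native Nanog (NanogWT) or with Nanog joined at its N terminus to the BRG1-binding domain of SS18 (NanogBiD, called NanogN70 in the labels), so every transduced sample also carried Oct4. The time course held 31 libraries on 8 days (D0 and D1, then D3, D5 and D7, then D8, D10 and D12), in iCD3 medium until about D7 and then in 2iL, with 2 libraries per combination and day except for 1 of NanogBiD at D8. Added to these were 2 libraries of untreated MEF, 1 of mouse embryonic stem cells (mES, also labelled OG2), and 12 samples of iPSC, 6 per combination. The iPSC were grown like mES without feeders in 2iL. They are labelled iPSC1 or iPSC2 under both combinations, and what these labels stand for is not stated. The NanogWT iPSC1 samples labelled 1# and 1#-2 share a number, and whether they are separate cultures is not stated either. Nothing states that libraries of a group came from separate cultures, so p-values measure only the spread between these libraries, and in bulk RNA a lower value cannot be told apart from fewer cells of a kind.

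Values are FPKM, fragments scaled to the length of the gene model and to the library. Summed markers matched the labels: 7 fibroblast markers reached 5631 to 6599 FPKM in MEF, and 7 pluripotency markers 3708 in mES and 1890 to 5182 in the iPSC. Total FPKM per time-course library ran from 370030 to 462190. Relative depth, read from the steps between low values, was 0.875 to 1.10 in the 20 libraries of D0 to D7 and 0.813 to 1.02 in the 5 NanogBiD libraries of D8 to D12, but 1.86 to 3.19 in the 6 NanogWT libraries of D8 to D12, so depth and combination cannot be told apart from D8 on. Genes at 1 FPKM or more in at least 2 libraries were tested with limma on log2(FPKM + 1), which understates the change of low genes, and "called" means a Benjamini-Hochberg adjusted p under 0.05 together with a log2 difference of at least 1.

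No library held all 10 genes at 1 FPKM or more. Of the 10 genes, 4 passed the filter on low values in the time course (Gata6, Sox17, Cubn and Dab2), and Sox17 did so only through NanogBiD libraries of D5 and D7, so its test follows in part from its selection. Gata4, Sox7, Foxa2, Amn, Afp and Ttr stayed below 1 FPKM in every one of the 31 libraries. Dab2 stayed higher with NanogWT and fell with NanogBiD. Cubn rose in both combinations from MEF to D1, then fell with NanogBiD and stayed higher with NanogWT. Sox17 exceeded 0.8 FPKM in the NanogBiD libraries of D5, D7 and D8 and in no other library. Gata6 was lower at D7 and D12 than at D0 in both combinations, and called only with NanogBiD. The difference between its changes did not pass the test.

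**Figure D1:**
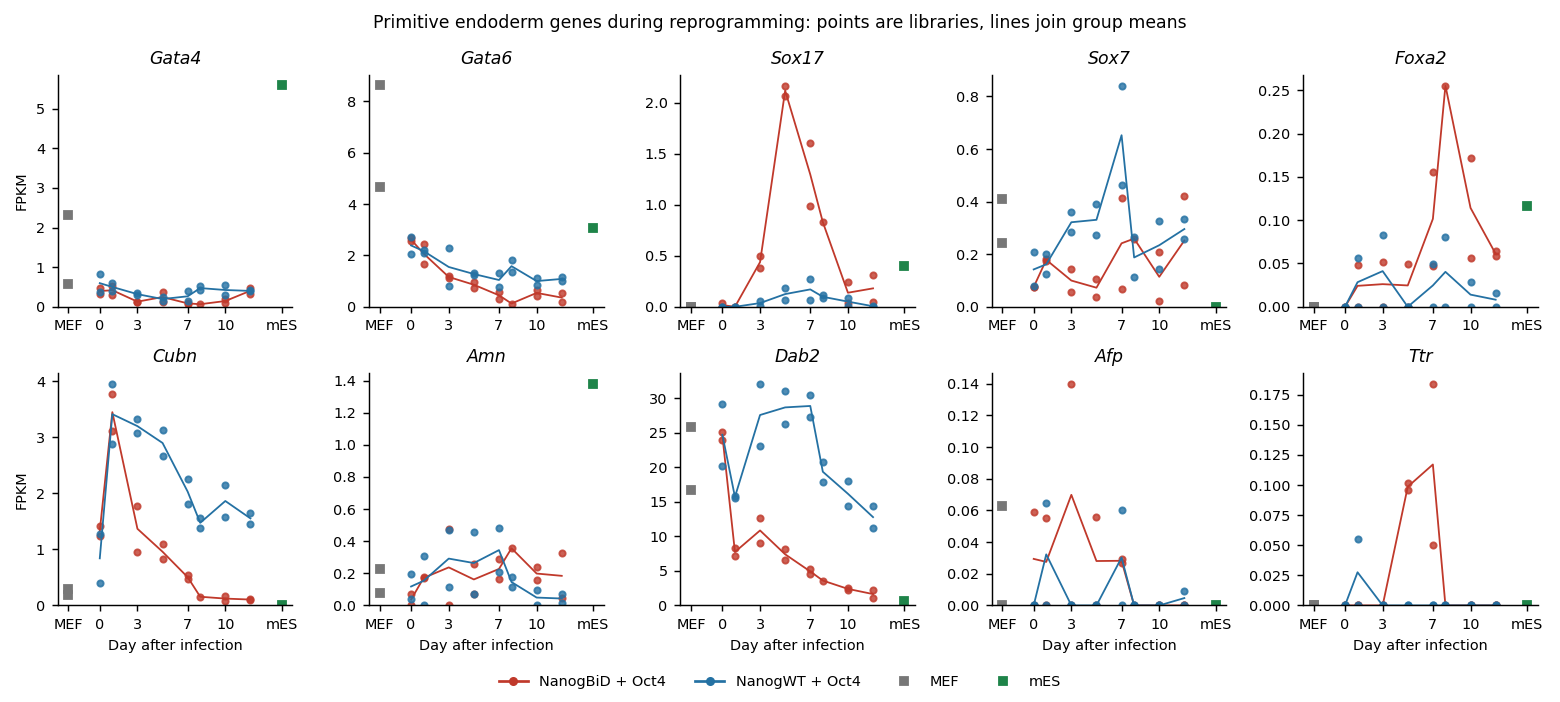
FPKM (vertical axis, linear, a separate scale per gene) of the 10 genes by day after infection for NanogBiD with Oct4 (red) and NanogWT with Oct4 (blue), with MEF (grey) and mES (green) at the sides. Points are libraries and lines join group means; the combinations do not overlap from D1 for Dab2 and from D3 for Cubn, Sox17 peaks at D5 with NanogBiD, and the axes of Afp, Ttr and Foxa2 end below 0.3 FPKM.

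Promoter windows are shown for Dab2 and Cubn, the pair that separated the combinations most often. RefSeq windows of 300 bases (250 before and 50 after the start, build GRCm38.p6, the assembly also known as mm10) were at hand for 5 of the 10 genes, namely Foxa2, Cubn, Amn, Afp and Dab2, and not for Gata4, Gata6, Sox17, Sox7 and Ttr. Each is written 5′ to 3′ on the strand of the gene, and capitals mark matches to GATAA on either strand.
Dab2 first start, chr15:6299539-6299838, plus strand: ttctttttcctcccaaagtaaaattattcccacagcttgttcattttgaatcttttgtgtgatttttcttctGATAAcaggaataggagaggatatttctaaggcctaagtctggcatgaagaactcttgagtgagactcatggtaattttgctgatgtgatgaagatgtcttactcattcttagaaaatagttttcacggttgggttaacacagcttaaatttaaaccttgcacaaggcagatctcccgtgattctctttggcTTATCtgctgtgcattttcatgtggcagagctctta
Dab2 second start, chr15:6386498-6386797, plus strand: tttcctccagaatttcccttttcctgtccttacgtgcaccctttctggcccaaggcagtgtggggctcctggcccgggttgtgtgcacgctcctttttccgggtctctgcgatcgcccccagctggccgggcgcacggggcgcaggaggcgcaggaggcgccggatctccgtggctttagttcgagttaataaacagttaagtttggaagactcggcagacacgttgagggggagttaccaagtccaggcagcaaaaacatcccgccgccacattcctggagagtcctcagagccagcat
Cubn, chr2:13491827-13492126, minus strand: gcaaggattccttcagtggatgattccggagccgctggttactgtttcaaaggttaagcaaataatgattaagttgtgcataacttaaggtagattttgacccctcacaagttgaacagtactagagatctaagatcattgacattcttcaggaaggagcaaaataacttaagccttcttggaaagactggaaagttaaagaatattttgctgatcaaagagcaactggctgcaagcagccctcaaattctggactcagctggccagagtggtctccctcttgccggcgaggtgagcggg

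The first Dab2 window held 2 matches to GATAA, the core letters bound by GATA factors, and the other windows printed held 0. Of all 32851 promoter windows of this length, 25.4% held at least 1. The AP-1 letters TGANTCA (7.81% of all windows), the octamer ATGCAAAT (1.74%) and the SOX letters ACAAT (31% of all windows) had 0 matches in the Dab2, Cubn, Amn and Afp windows, both strands searched, and no match overlapped another. A match is a run of letters and not a site of binding.

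Dab2 (chromosome 15, 6299788 to 6440715) encodes an endocytic adaptor that links receptors such as megalin and cubilin to clathrin. The paper names Dab2 among genes specific to somatic cells. In MEF it stood at 25.9 and 16.8 FPKM. At D0 it was 24.0 and 25.1 FPKM with NanogBiD and 20.3 and 29.2 with NanogWT. The ranges overlapped at D0, and the log2 difference was 0.01 (SE 0.22, limma adjusted p = 1).

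One day later Dab2 was at 7.16 and 8.33 FPKM with NanogBiD against 15.9 and 15.5 with NanogWT, which did not overlap. The log2 difference of -0.94 (SE 0.22, limma adjusted p = 0.0203) lay under the fold limit. At D3 the libraries read 9.10 and 12.6 FPKM with NanogBiD and 32.1 and 23.1 with NanogWT, and Dab2 was called lower (log2 difference -1.27, SE 0.22, limma adjusted p = 6.11e-04). This call at D3 was lost when the compared groups were fitted alone (adjusted p = 0.207) and without replicate 1 (log2 difference -0.82, adjusted p = 0.137).

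The later days kept the combinations apart. At D5 Dab2 was 8.23 and 6.58 FPKM with NanogBiD against 31.1 and 26.3 with NanogWT (log2 difference -1.82, SE 0.22, limma adjusted p = 6.48e-06), and at D7 4.58 and 5.27 against 30.5 and 27.3 (log2 difference -2.34, adjusted p = 1.62e-07). The single NanogBiD library of D8 held 3.6 FPKM, and both NanogWT libraries, at 20.8 and 17.9, lay above it. At D10 the values were 2.23 and 2.56 FPKM against 18.0 and 14.3 (log2 difference -2.33, adjusted p = 4.17e-08), with no overlap. At D12 the NanogBiD libraries, 1.09 and 2.2 FPKM, had come near the mES value of 0.620, while NanogWT kept 11.2 and 14.4 (log2 difference -2.41, limma adjusted p = 3.09e-08).

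Against its own D0, Dab2 fell by 2.11 on the log2 scale at D7 and by 3.31 at D12 with NanogBiD (SE 0.22, limma adjusted p = 1.99e-07 and 1.77e-10). With NanogWT the change was 0.24 at D7 (adjusted p = 0.431) and -0.89 at D12 (adjusted p = 0.0031), neither called. The change itself differed between combinations, by -2.35 at D7 and -2.42 at D12 (SE 0.31, limma adjusted p = 3.24e-05 and 6.14e-06). In order of group means, Dab2 was highest with NanogWT at D7 (28.9 FPKM), D5 (28.7) and D3 (27.6), and these neighbours overlapped in their libraries.

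Cubn (chromosome 2, 13276338 to 13491876) encodes the large peripheral receptor that binds vitamin B12 carriers and many proteins in the yolk sac, kidney and gut. It was low in MEF, at 0.301 and 0.186 FPKM, and listed at 0 in mES. At D0 it stood at 1.41 and 1.25 FPKM with NanogBiD and 0.400 and 1.28 with NanogWT, and at D1 it was 3.78 and 3.11 against 2.88 and 3.94. The combinations overlapped at both days, with log2 differences of 0.38 (limma adjusted p = 0.365) and 0.02 (adjusted p = 1).

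From D3 the Cubn values no longer overlapped. They read 0.957 and 1.78 FPKM with NanogBiD against 3.07 and 3.33 with NanogWT at D3, and 1.09 and 0.821 against 3.14 and 2.66 at D5. Both differences, -0.85 and -0.99 on the log2 scale (SE 0.20, limma adjusted p = 0.00888 and 0.00154), were just short of the fold limit. At D7 the values were 0.470 and 0.538 FPKM against 2.25 and 1.81, a called difference of -1.01 (limma adjusted p = 7.67e-04) that was -0.87 (adjusted p = 0.0559) without replicate 1.

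The NanogBiD library of D8 held Cubn at 0.155 FPKM against 1.38 and 1.57, and at D10 it was 0.173 and 0.0718 against 2.14 and 1.58. Each NanogWT library of these days was above each NanogBiD library. By D12 Cubn was at 0.0941 and 0.115 FPKM with NanogBiD and 1.46 and 1.65 with NanogWT, called lower by -1.21 (SE 0.20, limma adjusted p = 5.09e-05), as at D10 with -1.35 (adjusted p = 1.19e-05). From D0 to D12 it fell by 1.08 on the log2 scale with NanogBiD (limma adjusted p = 1.14e-04), and with NanogWT it stood at 0.51 above D0, not called (adjusted p = 0.0498). The changes differed between combinations by -1.39 at D7 and -1.59 at D12 (SE 0.28, limma adjusted p = 0.00201 and 2.19e-04). The D7 value rests on replicate 1, without which it was -0.85 (adjusted p = 0.207), and was not called with the compared groups fitted alone (adjusted p = 0.0593). The noncoding genes Gm13270 and LOC115489436 overlap Cubn, and Gm16311 and the pseudogene Gm18888 overlap Dab2; strand was not stated, so reads shared with them cannot be told apart.

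**Figure D2:**
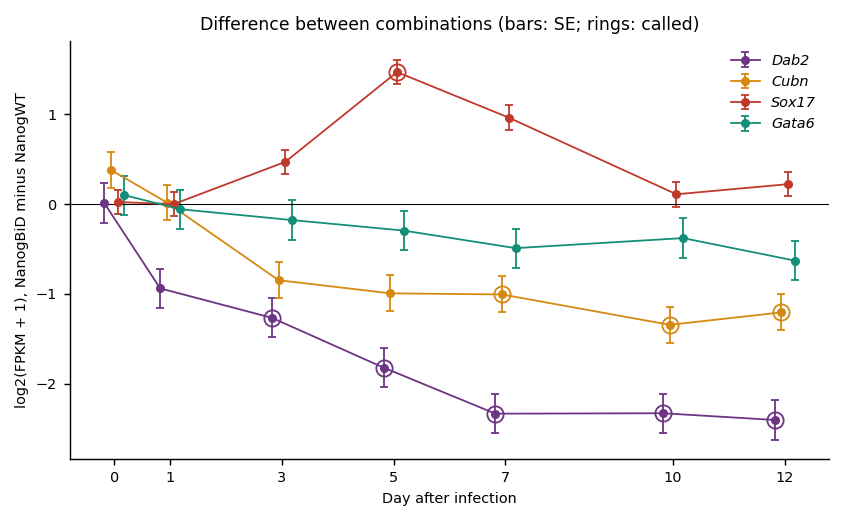
Log2(FPKM + 1) of NanogBiD minus NanogWT (vertical axis) by day after infection for the 4 tested genes, points shifted slightly sideways. Bars are the SE of the limma fit and rings mark called differences: Dab2 goes from 0.01 at D0 to -2.41 at D12, Cubn from 0.38 to -1.21, and Sox17 is ringed at D5 only.

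Amn, the membrane partner that anchors cubilin (chromosome 12, 111271096 to 111276426), stayed low in both combinations. It ranged from 0 to 0.483 FPKM over the 31 time-course libraries, at most 13 reads, against 1.38 FPKM (34 reads) in mES. Reads here are the whole steps recovered from the low values, and whether a step is a read or a pair was not tested. The combinations overlapped on each day from D0 to D7 and at D12. At D10 Amn was at 0.238 and 0.159 FPKM with NanogBiD (6 and 4 reads) against 0.0981 and 0 with NanogWT (5 and 0 reads), and at D8 0.356 against 0.113 and 0.179, so NanogBiD was the higher on both days. The gene overlaps the noncoding Gm51960.

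The summed level of fibroblast transcripts differed between the combinations in the same direction as Dab2 and Cubn from D3 on. The summed level of 7 fibroblast markers (Col1a1, Col1a2, Col3a1, Thy1, Twist1, Prrx1 and Pdgfrb) was 234 to 382 FPKM with NanogBiD and 523 to 590 with NanogWT at D7, and 242 to 381 against 2258 to 2850 at D12. None of the 7 was at 0 in either group. With NanogWT the sum was 1930 to 2231 FPKM at D0, lower at D7 and higher again at D12. The mean of Dab2 with NanogWT was highest at D7. Twist1 with NanogWT was at 31.9 and 15.1 FPKM at D0 and 47.1 and 34.6 at D7. Each other marker of the sum was lower at D7 than at D0. With NanogBiD the sum was 280 to 290 FPKM at D3, and Dab2 went from 9.10 and 12.6 FPKM at D3 to 1.09 and 2.2 at D12. The sum is mostly Col1a1, Col1a2 and Col3a1 in these libraries, and its members differed. From D3 to D12 with NanogBiD, Prrx1 went from 6.90 and 11.7 FPKM to 1.24 and 1.62. Twist1 and Thy1 were lower at D12 as well, and Col1a1, Col1a2, Col3a1 and Pdgfrb were not. In MEF the sum was 5631 to 6599 FPKM and Cubn was at 0.301 FPKM or less. Macrophage markers (Ptprc, Csf1r, Adgre1, Cd68 and C1qa), another cell type that uses Dab2, summed to 3.26 to 5.07 FPKM with NanogBiD and 3.91 to 6.90 with NanogWT at D7, and to 5.42 to 7.16 against 2.57 to 4.51 at D12, where Ptprc and C1qa were at 0 in both NanogBiD libraries. At D12 with NanogBiD this sum was mostly Cd68, at 6.35 and 5.24 FPKM. Cd68 was at 7.56 FPKM in mES as well, of a sum of 7.56, so the sum does not mark macrophages alone. The members differed at D7. Ptprc was higher with NanogBiD, at 0.973 and 1.36 FPKM against 0.526 and 0.308, and Adgre1 lower, at 0.137 and 0.0188 against 0.770 and 0.517. What part fibroblasts or macrophages have in the Dab2 and Cubn differences was not tested.

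Sox17 (chromosome 1, 4490928 to 4497426) encodes an HMG-box factor of primitive and definitive endoderm. It was listed at 0 in both MEF libraries and in all 4 libraries of D1. With NanogBiD it reached 0.379 and 0.497 FPKM at D3, 2.17 and 2.07 at D5, 0.987 and 1.61 at D7, 0.830 at D8, 0.0374 and 0.238 at D10, and 0.310 and 0.0510 at D12. The highest of the 16 NanogWT libraries held 0.271 FPKM, replicate 2 of D7. All NanogBiD libraries of D3 to D8 lay above that value, those of D10 did not, and of D12 only replicate 1 did.

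In reads, Sox17 had 189 and 191 at D5 with NanogBiD and 6 and 14 with NanogWT, at like depth. The log2 difference was 1.47 at D5 (SE 0.14, limma adjusted p = 3.15e-07, called) and 0.96 at D7 (adjusted p = 2.66e-05, under the fold limit). All Sox17 tests here follow in part from the filter, which it passed only through NanogBiD libraries of D5 and D7. At D10 and D12 it was 0.11 and 0.22 (adjusted p = 0.524 and 0.187). Against D0 with NanogBiD, Sox17 was called higher at D7 (1.16, SE 0.14, limma adjusted p = 1.13e-06; without replicate 2 it was 0.94 and no longer called), and at D12 the difference was 0.21 (adjusted p = 0.202). Its change from D0 to D7 differed between combinations by 0.94 (SE 0.19, limma adjusted p = 0.00225), under the fold limit. The mES library, at 0.395 FPKM, stood near the D3 level.

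Sox7 (chromosome 14, 63943706 to 63950732), a relative of Sox17 in parietal and early primitive endoderm, did not share that peak. It ranged from 0.0206 to 0.841 FPKM over the time course, and its highest values were those of NanogWT at D7, 0.464 and 0.841 (24 and 47 reads), against 0.0687 and 0.414 with NanogBiD. The libraries did not overlap between combinations at D3, D5 and D7, NanogWT being the higher, but Sox7 did not pass the filter. With no filter its log2 difference at D7 was -0.42 (SE 0.14, limma adjusted p = 0.0528), which missed the threshold. Sox7 was listed at 0 in mES.

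Definitive endoderm shares Sox17 and Foxa2 with primitive endoderm. Markers of definitive endoderm and gut (Gsc, Cxcr4, Mixl1, Cdx1, Epcam and Shh) summed to 18.6 to 18.7 FPKM with NanogBiD and 7.88 to 8.82 with NanogWT at D5, and to 57.8 to 64.5 against 13.1 to 18.2 at D7. With NanogBiD the sum was still 46.3 to 56.0 FPKM at D12, where Sox17 was at 0.310 and 0.0510. With NanogBiD the sum at D7 rested mostly on 2 of its genes. Cdx1 was then at 35.3 and 29.6 FPKM with NanogBiD against 0.216 and 0.334, and Epcam at 17.1 and 16.4 against 1.35 and 0.766. Both are high in mES as well (83.8 and 40.1 FPKM, of a sum of 129.8), so the sum does not mark endoderm alone. Cxcr4 was the lower with NanogBiD at D7, at 11.3 and 10.9 FPKM with NanogBiD against 15.4 and 11.6, and neither Cxcr4 nor Gsc was called at D5 or D7. In NanogWT at D5, Mixl1 and Cdx1 of this list were at 0. Endothelial markers (Pecam1, Cdh5, Kdr, Tek and Emcn), which belong to another cell type that uses Sox17, summed to 3.18 to 3.57 FPKM at D5 with NanogBiD and 5.83 to 5.98 with NanogWT. The members of this sum differed. At D5 Tek was lower with NanogBiD, and Pecam1, Kdr and Emcn overlapped. Cdh5 was higher with NanogBiD, at 0.18 and 0.25 FPKM against 0.13 and 0.11 at D5. At D7 it was at 0.83 and 0.58 FPKM against 0.14 and 0.07. Pecam1 was then higher with NanogBiD as well, and Tek lower. Cdh5 stayed below 1 FPKM in every library and was not tested. What part definitive endoderm or endothelial cells have in the Sox17 values was not tested.

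Foxa2 (chromosome 2, 148042877 to 148046969), a forkhead factor of visceral and definitive endoderm, was listed at 0 in 17 of 34 libraries of the table and reached at most 10 reads, in NanogBiD at D8 (0.255 FPKM). Ttr was at 0 in 29 of 34 libraries. The other 5 were NanogBiD at D5 (2 and 2 reads, 0.101 and 0.0958 FPKM), NanogBiD at D7 (4 and 1 reads, 0.184 and 0.0504 FPKM) and 1 NanogWT library of D1 (1 read). The positive Ttr libraries of D5 and D7 are those in which Sox17 was highest, but all but 1 of them lie under 3 reads and no fold is given. Afp (chromosome 5, 90490714 to 90508907) was at 0 in 24 of 34 libraries and had at most 5 reads, in NanogBiD at D3.

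**Figure D3:**
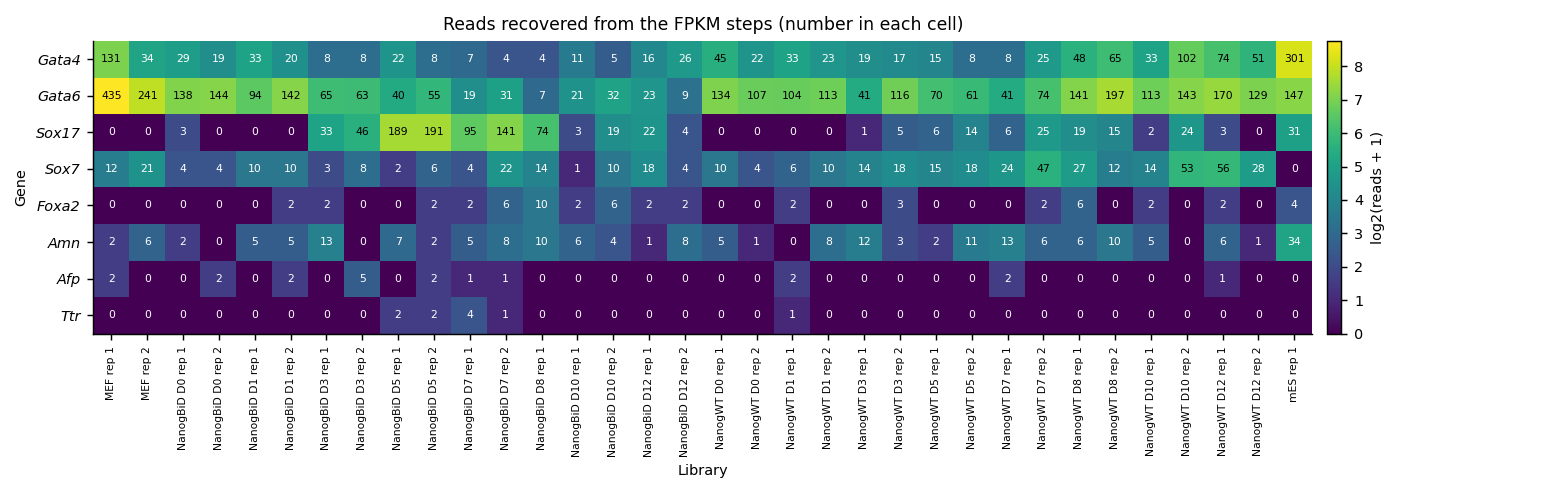
Reads recovered from the steps of the FPKM values for 8 genes (rows) in 34 libraries (columns); the number is printed in each cell and the colour is log2(reads + 1). The Sox17 row is brightest at D5 of NanogBiD, with 189 and 191 reads, while Afp and Ttr never exceed 5 and 4 reads; libraries of NanogWT from D8 on are 1.86 to 3.19 deep relative to the rest.

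Gata6, the zinc-finger factor that starts the endoderm programme, was highest in MEF, at 8.62 and 4.66 FPKM. At D0 it stood at 2.57 and 2.67 with NanogBiD and 2.73 and 2.05 with NanogWT. It was 0.322 and 0.576 FPKM against 0.782 and 1.31 at D7, and 0.529 and 0.187 against 0.997 and 1.18 at D12. The single NanogBiD library of D8 held 0.128 FPKM against 1.36 and 1.81 with NanogWT, the widest gap of the course and one with no test. The combinations overlapped at D0, D1 and D3 and at no later day.

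Within NanogBiD, Gata6 fell by 1.33 on the log2 scale from D0 to D7 and by 1.42 to D12 (SE 0.22, limma adjusted p = 6.16e-05 and 1.32e-05). Within NanogWT the changes of -0.73 and -0.69 (adjusted p = 0.0114 and 0.0168) were under the fold limit. The difference between these changes did not pass the test (-0.59, adjusted p = 0.222 at D7, and -0.73, adjusted p = 0.0713 at D12), nor was Gata6 called between combinations on any of the 7 days tested. Its difference at D12 was -0.63 (SE 0.22, limma adjusted p = 0.0218), under the fold limit. Gata6 in mES was 3.06 FPKM. The noncoding Gata6os overlaps it.

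Gata4 (chromosome 14, 63198914 to 63271712), the factor that follows Gata6 in the endoderm, was at 2.32 and 0.587 FPKM in MEF, and its 5.59 FPKM in mES lay above all other libraries of the table. Over the time course Gata4 ranged from 0.0653 FPKM (4 reads) to 0.819 FPKM (45 reads, NanogWT at D0). Its highest read number, 102, came from a deeper NanogWT library of D10 at 0.551 FPKM. With NanogBiD it was lowest at D7 (0.106 and 0.0663) and D8 (0.0653). The endoderm genes Gata4, Gata6 and Amn were thus higher in this single mES library than in any NanogBiD library of D12.

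Of the tested genes, 0 of 4 were called between combinations at D0 (0.76% of all 16842 tested genes were called) and 0 of 4 at D1 (1.33%). At D3 the count was 1 of 4 (Dab2 lower; 3.7% of all genes were called and 2.45% were lower). At D5 it was 2 of 4 (Sox17 higher, Dab2 lower; 6.48% called, 3.2% higher and 3.28% lower), where Sox17 is no support, since it passed the filter only through the group in which it is high. At D7 it was 2 of 4 (Cubn and Dab2 lower; 10.4% called, 5.79% higher and 4.65% lower). At D10 and D12 it was again Cubn and Dab2 lower, where 27.8% and 23.4% of all genes were called, 12.3% and 9.97% lower. Over time with NanogBiD, 3 of 4 were called at D7 (18.8% of all genes, 12.7% higher and 6.15% lower), Sox17 again among them, and 3 of 4, all lower, at D12 (34.7% called, 10.2% lower). With NanogWT 0 of 4 were called at both days (17.7% and 16.2% of all genes). The change from D0 was called more negative with NanogBiD for 2 of 4 at D7 (10.1% called, 4.88% lower) and 2 of 4 at D12 (23.9% called, 10.5% lower). The contrasts against D0 share their D0 libraries with each other, so these counts are not separate evidence.

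The genes whose profile over the 31 libraries was nearest, by Pearson r on log2(FPKM + 1), were Cdh8 (0.966), Man2a1 (0.961) and Asph (0.950) for Cubn. For Dab2 they were Il13ra1 (0.934), Nek7 (0.932) and Itga1 (0.931), and for Sox17 Nrap (0.952), 1700024G13Rik (0.950) and LOC108167664 (0.939). Gata6 was nearest to Gm11816 (0.876), Ptgs2 (0.868) and Twist2 (0.867). These values describe profiles of libraries that share days and combinations.

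A further list of 40 extraembryonic endoderm genes (other transcription factors, signals, basement membrane, epithelium and uptake, secreted proteins and parietal genes) had 24 tested members. At D5 1 of them was called higher with NanogBiD and 1 lower (3.2% and 3.28% of all genes), and at D7 6 were higher and 1 lower (5.79% and 4.65%). At D10 7 were higher and 11 lower (15.4% and 12.3%), and at D12 7 and 10 (13.5% and 9.97%). The median log2 difference of the list was 0.03, 0.06, -0.71 and -0.54 on these days, beside 0.08, 0.08, 0.10 and 0.17 over all tested genes. The directions were mixed within the list, as among Sox17, Cubn and Dab2.

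The thrombin receptor thrombomodulin (Thbd), abundant in parietal endoderm and in endothelium, had the widest difference of the list. It is also a gene of the starting cells, at 54.1 and 23.5 FPKM in MEF and 0.037 in mES. The paper names Thbd, with Dab2, as specific to somatic cells. At D5 it was at 3.51 and 4.97 FPKM with NanogBiD against 37.1 and 54.9 with NanogWT (log2 difference -3.15, SE 0.21, limma adjusted p = 7.49e-09). It was called lower at D7 (-3.62) and D12 (-3.62) as well. Lama1, the laminin chain of Reichert's membrane, went the other way, with 5.71 and 6.89 FPKM against 1.91 and 1.86 at D5 (1.34, adjusted p = 3.28e-05).

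At D7 transferrin (Trf, log2 difference 1.69), Cldn6 (1.40), Lama1 (1.25), Krt8 (1.19) and Hhex (1.19) were called higher with NanogBiD. At D12 the keratins Krt8 (3.56) and Krt18 (3.47) were called higher, and Fst (-3.44), Sparc (-3.10) and Lamb1 (-2.41) lower, alongside Dab2 and Cubn. Many of these genes are also used by epithelia, pluripotent cells or fibroblasts. With NanogWT, Sparc went from 385 and 398 FPKM at D7 to 881 and 978 at D8, and Lamb1 from 35.7 and 34.1 to 97.0 and 73.0. Depth of the NanogWT libraries and the medium changed between these days as well, and their part in the D12 differences was not tested. Of 8 basement membrane genes, 1 was called higher at D12 and 6 lower; of 3 parietal genes, 3 were lower (of all genes 13.5% were higher and 9.97% lower).

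In the iPSC, transcripts were summed by symbol and 4 of the 10 genes passed the filter (Gata4, Gata6, Amn and Dab2). Called between NanogBiD and NanogWT iPSC were 0 of these 4, and 0 of all 12456 tested genes (0%), by limma with the label iPSC1 or iPSC2 as a covariate. An unadjusted p under 0.05 was reached by 201 genes. Dab2 ranged from 0.186 to 3.98 FPKM with NanogBiD (median 0.406, n = 6) and from 0.0332 to 1.87 with NanogWT (median 0.452, n = 6). The ranges overlapped, with a log2 difference of 0.16 (SE 0.36, adjusted p = 0.999).

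Gata4 ran from 0.217 to 1.80 FPKM with NanogBiD and from 0.426 to 2.39 with NanogWT (log2 difference -0.23, SE 0.24, limma adjusted p = 0.999). For Gata6 and Amn the differences were 0.07 (SE 0.22) and -0.24 (SE 0.21), both at an adjusted p of 0.999. Gata4 was below its mES value of 4.87 FPKM in all 12 samples and Gata6 below its value of 2.42. Ttr was listed at 0 in all 12 samples.

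**Figure D4:**
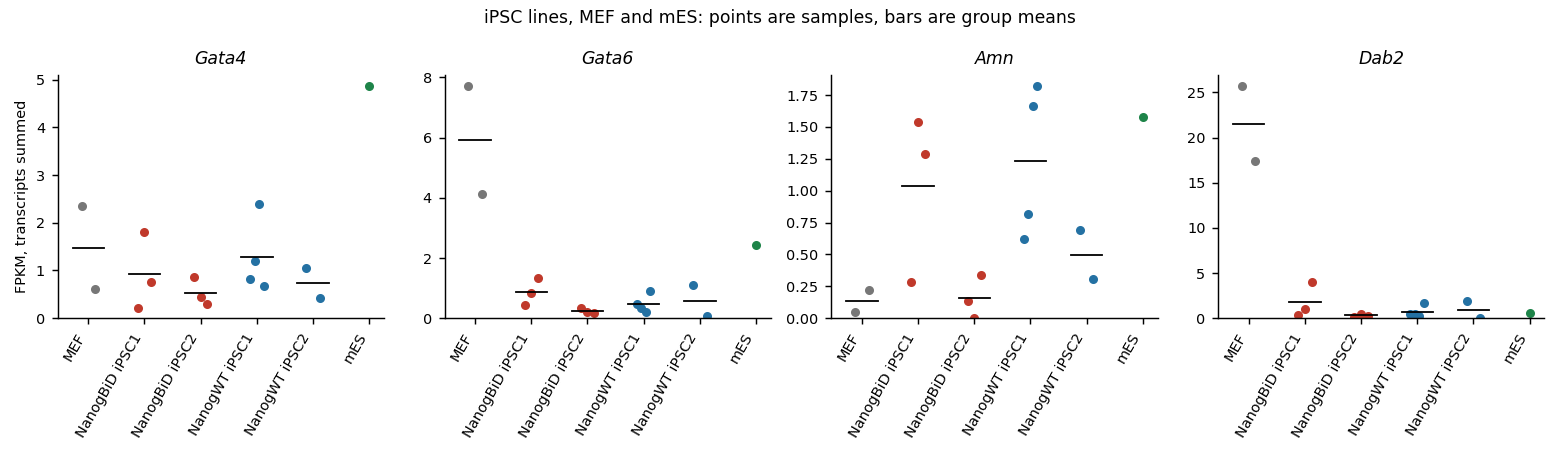
FPKM summed over transcripts (vertical axis, a scale per gene) of Gata4, Gata6, Amn and Dab2 in MEF, the 4 groups of iPSC and mES. Points are samples and bars are group means; iPSC of both combinations overlap for every gene, Gata6 and Dab2 lie below both MEF samples, and 1 NanogBiD iPSC1 sample stands out for Dab2 at 3.98 FPKM.

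Between samples labelled iPSC1 and iPSC2, 0 of the 4 genes were called (0.883% of all genes). Amn was the furthest apart, with 0.287, 1.54 and 1.29 FPKM in NanogBiD iPSC1 and 0.137, 0 and 0.343 in NanogBiD iPSC2, and a log2 difference over both combinations of 0.66 (SE 0.21, limma adjusted p = 0.0928). The headers give a higher passage for iPSC1 than for iPSC2, and passage cannot be told apart from anything else that these labels stand for.

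Against MEF, 2 of 4 were called lower in iPSC (40.7% of all 13312 tested genes were called, 18.8% lower). Gata6 was at 7.71 and 4.13 FPKM in MEF and 0.0711 to 1.34 in the 12 iPSC samples (log2 difference -2.17, SE 0.27, limma adjusted p = 1.27e-05). Dab2 was at 25.7 and 17.4 FPKM in MEF (log2 difference -3.69, SE 0.44, adjusted p = 9.05e-06). No iPSC sample overlapped MEF for either gene.

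The transcripts credited with the reads of Dab2 were not the same in MEF and most iPSC samples, a comparison with no test. In MEF the transcript NM_023118.5 held 23.6 and 14.4 FPKM of the gene, whereas XM_017316424.1 held 1.29 and 0.0165. In 9 of 12 iPSC samples XM_017316424.1 was the only Dab2 transcript above 0, and in mES the pair held 0.326 and 0.266 FPKM. The exceptions were NanogBiD iPSC1 replicates 8 and 9 and NanogWT iPSC1 replicate 3. In replicate 9, the iPSC sample with the highest Dab2, NM_023118.5 held 1.28 FPKM and XM_017316424.1 0.890. The split of reads among transcripts is itself an estimate of StringTie, so these values are uncertain at the low level of the iPSC.

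The NanogBiD iPSC1 sample with the highest Dab2 (replicate 9) also had the highest fibroblast sum of all iPSC, 1341 FPKM, against 2.45 to 421 in the other 11. Next came a NanogWT iPSC1 sample (replicate 3) with 421 FPKM and Dab2 at 1.69, while a NanogWT iPSC2 sample (replicate 5) had Dab2 at 1.87 FPKM with a fibroblast sum of 27.8. Without replicate 9 the Dab2 difference between combinations was -0.18 (SE 0.29, limma adjusted p = 1) in place of 0.16, and the difference from MEF was -3.83 and still called. The part of fibroblast RNA in these Dab2 values was not tested further.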

How the data were processed

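RNA-seq libraries were made from total RNA. Per the study's methods and the submitters' processing notes, reads were trimmed with Trim Galore 0.6.4, aligned to mm10 with HISAT2 2.2.1 and quantified with StringTie 2.2.1. The authors deposited FPKM values, in 1 table of genes (34 libraries) and 1 table of transcripts (15 samples), with replicates kept apart. The gene annotation and any use of strand are not given in the sources used here.

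Values were analysed as log2(FPKM + 1) after a filter of at least 1 FPKM in at least 2 samples. limma 3.58.1 (R 4.3.3), with its moderated variances following an intensity trend, fitted all 31 time-course libraries in 16 groups together, the 12 iPSC samples with combination and the iPSC1 or iPSC2 label, and iPSC with MEF. Tests are two-sided with Benjamini-Hochberg adjustment over all tested genes. NanogBiD at D8 has 1 library and no test. FPKM are no counts, so no count model was used. Scripts were tested on simulated data with known changes.

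Relative depth came from 1263 genes whose low values are whole multiples of a step (tolerance 0.05); it was set to 1 at the median of the MEF and D0 to D7 libraries, and 97.1% to 100% of low values were whole per library. The step of a gene was taken as 1 read. Depth of the transcript table is unknown.

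The 10 genes and all lists were chosen with earlier results of these data known. All 10 genes are named; of the further endoderm list, genes called at D5, D7 or D12 are named, at most 6 per day by size of difference, and for each tested gene the 3 nearest profiles. Alternatives were a pseudocount of 0.1, no filter, TPM scaling, quantile normalization, no fold limit and the compared groups alone. Others were a replicate block, leaving out replicates and, in the iPSC, averaging the samples 1# and 1#-2. A fit to the 20 libraries of D0 to D7 was added after seeing the data. Python 3.11.15 with pandas 2.3.3 and numpy 2.4.6 was used for the rest.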

Additional observations from a re-analysis of the deposited data

Results flagged for a closer look

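The change of Dab2 from D0 differed between combinations at D7 (-2.35 on the log2 scale) and at D12 (-2.42), as did that of Cubn (-1.39 and -1.59), each by the interaction term of the limma fit. From D3 on every NanogBiD library was below every NanogWT library of its day for both genes.

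Among the iPSC, 25 combinations of gene and group were examined for a sample far from the others, with NanogWT iPSC1 also counted within NanogWT iPSC. The limit marks about 1 of 20 by chance for independent values with a normal spread, which was not shown for these FPKM. Dab2 (3.98 FPKM, others 0.186 to 1.01, gap of 0.783 of the range) and Cubn (0.110 FPKM, others 0 to 0.0180, gap of 0.836) both stood out in NanogBiD iPSC1 replicate 9, the sample with the highest fibroblast sum. Afp was listed above 0 in 1 of 6 NanogBiD iPSC (0.0936 FPKM, replicate 8 of iPSC1, gap of 1), and Foxa2 in 1 of 6 NanogWT iPSC (0.214 FPKM, replicate 3 of iPSC1, gap of 1 among the 6 and, for the same sample, among the 4 labelled iPSC1). With all other samples at 0 the gap is 1 for any value above 0, so for Afp and Foxa2 that share does not apply in any case. The Cubn, Afp and Foxa2 values are all below 0.3 FPKM. In the other combination Cubn reached 0.106 FPKM (NanogWT iPSC2 replicate 5) and Foxa2 0.283 FPKM (NanogBiD iPSC1 replicate 9). The flagged Cubn and Foxa2 values thus stand out within their combination and not among all iPSC.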

How the results depend on the processing

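Counts of called genes among the 10 moved as follows, first those that changed by more than the step from 2 to 3. Without a fold limit, 1 gene was called between combinations at D1 and 3 at D3, and against D0 with NanogWT 2 at D7 and 3 at D12. A pseudocount of 0.1 gave 1 at D1 and 3 at D3, and 3 at D7 and 1 at D12 with NanogWT. TPM scaling gave 2 at D3 and 1 at D7 with NanogWT, and quantile normalization 1 at D7 and 1 at D12 with NanogWT. With the compared groups alone, 0 were called at D3, and 1 rather than 2 for the change to D7 compared between combinations. Leaving out replicates gave 0 to 2 at D3 and, with NanogWT, 0 to 2 at D7. Smaller moves were from 2 to 3 at D5, D7, D12 and in the D7 change and from 3 to 4 at D7 against D0 with NanogBiD without a fold limit and with a pseudocount of 0.1, from 2 to 3 in the first 4 of these with TPM scaling and at D5 with quantile normalization, from 2 to 3 in the D12 change with the pseudocount or TPM, and from 3 to 2 at D7 against D0 with NanogBiD without replicate 2. Of single genes, the calls of Dab2 at D3, Cubn at D7 and in the D7 change, and Sox17 at D7 against D0 were lost as given in the report, each by leaving out 1 replicate or fitting the groups alone, and no called gene reversed; in the iPSC comparisons no count moved. The cause was not tested beyond the smaller number of libraries.

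Replicate numbers are shared by the combinations, but deviations of same-numbered libraries correlated at -0.0647 to 0.395 over 7 days, with only 2 pairs, so the numbers were not taken as pairs. With the replicate block, the number of the 10 genes called was 0 at D0 and D1, 1 at D3, 2 at D5, D7, D10 and D12, as without it. In the fit to the 20 libraries of D0 to D7 Dab2, Sox17 and Cubn kept their calls at D3, D5 and D7. Without the filter all 10 genes entered the time-course fit and the other 6 were not called, Ttr having log2 differences of 0.14 at D5 and 0.16 at D7 (adjusted p = 0.0164 and 0.00335), under the fold limit and from at most 4 reads. The median of all genes in D12 against D0 with NanogBiD was 0.34, and 0.01 under quantile normalization, a shift that left Gata6, Cubn and Dab2 called lower. Foxa2, Amn and Afp had few reads in every time-course library, also in the deeper NanogWT libraries of D8 to D12. A difference between combinations may have gone undetected for them.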
